A study of Homo sapiens with 22 samples.

Results

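DHRS2, SERPINI1, TUFT1 and SAT1 are 4 of the 11963 genes measured here, followed through 6 human B-cell lymphoma lines without and with a combined treatment against DNA methylation and histone deacetylation. They were chosen for large treated minus untreated differences in every line, so the size of those differences is described here with no test. Tested instead is whether the differences were even over the lines, and whether the lines differed in their untreated and in their treated levels. The choice did not ask for equal differences, but large ones in every line favour evenness. These tests also use the same arrays as the choice, so they are not independent of it. All probe sets whose platform annotation names only 1 of these genes were taken, 7 in number. DHRS2 had 206463_s_at and 214079_at, SERPINI1 had 205352_at, TUFT1 had 205807_s_at, and SAT1 had 210592_s_at, 203455_s_at and 213988_s_at. An eighth probe set, 210593_at, names SAT1 together with ZSWIM8 and was not counted as SAT1. For a gene with several probe sets, the one with the highest mean over all arrays is meant unless another is named, namely 206463_s_at for DHRS2 and 210592_s_at for SAT1.

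The 22 arrays (Affymetrix HG-U133A) were hybridised with RNA from Daudi, Namalwa and Raji, which derive from Burkitt lymphoma, and from SU-DHL4, SU-DHL6 and HT, which derive from diffuse large B-cell lymphoma (DLBCL). All cells grew in RPMI 1640 with fetal bovine serum. The untreated group of each line carries no stated vehicle, and the treated group received 5-aza-2'-deoxycytidine (5-aza-dC), which blocks DNA methyltransferases, for 6 days, with medium and drug replaced at days 2 and 5, and 625 nM trichostatin A (TSA), which blocks histone deacetylases, during the last 24 h. The 5-aza-dC dose is 5 µM in the sample titles and 3 µM in the protocol. Each of the 12 groups had 2 arrays, except that HT had 1 untreated and 1 treated array. No group received either drug alone, so their shares in any difference cannot be told apart. The series text says that array files of the treated Burkitt lines had been published before; whether they were run apart from the DLBCL arrays is not given in the sources used here.

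DHRS2 (also known as Hep27) belongs to the short-chain dehydrogenases/reductases, enzymes that reduce or oxidise carbonyl compounds with NADPH or NADH, and was first described in hepatoma cells arrested with butyrate, another histone deacetylase inhibitor. SERPINI1 encodes neuroserpin, a secreted inhibitor of tissue plasminogen activator best known from neurons. TUFT1 encodes tuftelin, an acidic protein first found in developing tooth enamel and since found in many soft tissues. SAT1 encodes spermidine/spermine acetyltransferase, the enzyme that opens polyamine breakdown by acetylating spermine and spermidine so that they can be exported or oxidised.

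The promoters are shown because a methyltransferase inhibitor acts on DNA in which cytosine of a CpG is methylated, and the 4 genes differ in how many CpG they carry there. The sequences are RefSeq's on GRCh38.p14, 300 bases each on the plus strand, from 250 bases before the start of transcription to 50 bases after it, with each CpG in capitals. DHRS2 lies at chr14:23629865-23630164, SERPINI1 at chr3:167735471-167735770, TUFT1 at chr1:151540059-151540358 and SAT1 at chrX:23782923-23783222.
DHRS2: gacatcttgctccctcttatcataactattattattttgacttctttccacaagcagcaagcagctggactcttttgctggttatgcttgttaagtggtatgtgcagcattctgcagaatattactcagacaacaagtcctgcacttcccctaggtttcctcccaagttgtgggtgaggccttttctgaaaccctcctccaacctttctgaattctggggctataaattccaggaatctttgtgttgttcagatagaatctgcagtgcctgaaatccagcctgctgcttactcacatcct
SERPINI1: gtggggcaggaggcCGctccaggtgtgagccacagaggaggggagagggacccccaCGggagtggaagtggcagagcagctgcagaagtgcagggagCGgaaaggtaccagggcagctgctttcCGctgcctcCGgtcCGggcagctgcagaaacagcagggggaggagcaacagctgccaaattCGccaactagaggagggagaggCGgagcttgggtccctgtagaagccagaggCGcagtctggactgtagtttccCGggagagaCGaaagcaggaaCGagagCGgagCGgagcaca
TUFT1: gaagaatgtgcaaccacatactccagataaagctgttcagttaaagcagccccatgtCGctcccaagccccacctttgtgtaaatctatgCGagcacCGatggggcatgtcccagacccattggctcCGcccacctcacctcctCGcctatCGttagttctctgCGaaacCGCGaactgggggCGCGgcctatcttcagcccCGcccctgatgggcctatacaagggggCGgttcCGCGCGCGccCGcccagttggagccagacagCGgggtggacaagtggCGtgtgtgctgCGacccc
SAT1: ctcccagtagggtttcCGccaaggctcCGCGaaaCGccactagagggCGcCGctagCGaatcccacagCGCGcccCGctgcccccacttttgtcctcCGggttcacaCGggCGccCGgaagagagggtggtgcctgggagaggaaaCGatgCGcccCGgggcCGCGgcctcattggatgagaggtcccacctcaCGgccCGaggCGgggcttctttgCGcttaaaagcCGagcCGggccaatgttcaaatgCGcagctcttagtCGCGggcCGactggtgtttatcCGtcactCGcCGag
The DHRS2 window held 0 CpG at 44.0% GC. The SERPINI1 window held 14 CpG at 64.0% GC, the TUFT1 window 21 at 61.3% and the SAT1 window 32 at 66.0%. Over 35114 RefSeq promoters of the same length the median was 14 CpG, with quartiles of 4 and 28, so DHRS2 lay at the bottom of that distribution and SAT1 above its upper quartile. Methylation was not measured in these samples. Short motifs were searched on both strands. A TATA box (TATAAA, in 11.5% of all promoters) began 29 bases before the start of DHRS2 and was found in none of the other 3 windows. The TUFT1 window held 4 GC boxes (GGGCGG, in 45.0% of promoters) and 1 CCAAT box (CCAAT, in 34.6%), and the SAT1 window held 2 CCAAT boxes, with no overlap among these matches. No match to an AP-1 site (TGANTCA, in 7.71%) or an E-box (CACGTG, in 7.26%) was found in any of the 4 windows.

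All levels below are log2 RMA values, on which a difference of 1 is a doubling, and arrays of a duplicate are given in the order of their replicate number. Array medians lay between 6.72 and 6.91. Several arrays stood apart. The interquartile range of all values was 2.32 to 2.59 on untreated arrays, but 2.03 and 1.96 on the treated SU-DHL4 arrays and 1.996 on the second treated SU-DHL6 array, against 2.23 to 2.41 on the other treated arrays. That SU-DHL6 array also had the largest excess of the 3' over the 5' control probe set for ACTB, 2.08, against at most 0.47 on any other array, a measure of RNA quality. Of the untreated arrays, the second of Raji (0.07) and the second of SU-DHL6 (-0.29) had the highest 3' minus 5' values for ACTB. They were also the highest untreated arrays for GAPDH, at 0.64 and 0.55. The second treated Raji array showed a smaller response across genes: regressed on the mean response of the other lines, its slope was 0.52, against 0.93 for the first. The 6 B-cell markers measured all fell with treatment, and their mean level went from 10.2 to 10.8 on untreated arrays to 7.62 to 9.35 on treated arrays. Each sample was a cell line measured in bulk, so fewer cells with a marker's RNA and less of it per cell cannot be told apart. Of the markers of other cell types, 3 of 5 for T cells, 1 of 4 for myeloid cells and 1 of 6 for epithelial cells rose, beside 18.7% of all genes, by at most 1.17 on the log2 scale (CSF1R); the epithelial one, KRT18 (0.64), passed in 1 of 4 scalings, and CD3D and CD4 passed in 3 of 4. The mean level of the 6 epithelial markers was 5.34 to 5.70 on untreated and 5.58 to 6.00 on treated arrays. The part of these shifts in the levels of the 4 genes was not tested.

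On 206463_s_at, DHRS2 had nearly the same untreated level in every line and very different treated levels. Untreated, its level was 8.04 and 8.06 in Daudi, 7.75 and 7.76 in Namalwa, 8.03 and 7.61 in Raji, 8.01 and 7.69 in SU-DHL4, 7.89 and 7.63 in SU-DHL6, and 8.08 in HT. Treated, it was 13.10 and 11.95 in Daudi, 11.42 and 12.38 in Namalwa, 12.21 and 9.82 in Raji, 10.09 and 9.80 in SU-DHL4, 9.76 and 9.53 in SU-DHL6, and 11.99 in HT. Every treated array was thus above every untreated one. The lowest treated values came from both SU-DHL lines, with the second Raji array among them. The difference, treated minus untreated, was 4.48 in Daudi, 4.15 in Namalwa, 3.91 in HT, 3.19 in Raji, 2.096 in SU-DHL4 and 1.88 in SU-DHL6, with a standard error of 0.57 in each line with duplicates. Its mean was 3.28 ± 1.09 (SD, n = 6 lines), a 9.75-fold difference that ran from 3.69-fold in SU-DHL6 to 22.3-fold in Daudi.

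The other DHRS2 probe set, 214079_at, gave larger differences in every line. Its level was 4.66 to 6.14 on the untreated arrays (median 5.06) and 8.65 to 11.96 on the treated arrays (median 11.03), again with no overlap. Its untreated line means were less alike than those of 206463_s_at, from 4.84 in SU-DHL6 to 6.02 in Daudi, with an SD over lines of 0.47 against 0.14. The difference was 6.57 in Namalwa, 5.81 in Raji, 5.78 in Daudi, 5.71 in HT, 4.66 in SU-DHL6 and 3.60 in SU-DHL4. Both probe sets placed SU-DHL4 and SU-DHL6 below the other 4 lines, but for 206463_s_at this rested on the first treated Raji array: the second alone gave a Raji difference of 1.99, below the 2.096 of SU-DHL4. The mean was 5.35 ± 1.05 (SD, n = 6 lines), or 40.9-fold, with a range of 12.1-fold in SU-DHL4 to 95-fold in Namalwa. In the authors' deposited table of differences over all arrays, this probe set ranked 1 of 22283, at 5.32.

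SERPINI1 line means were spread out both without and with treatment. Untreated, its level was 8.15 and 7.80 in Daudi, 5.96 and 5.96 in Namalwa, 4.72 and 5.69 in Raji, 6.53 and 6.901 in SU-DHL4, 5.83 and 7.67 in SU-DHL6, and 5.87 in HT. Treated, it was 9.84 and 10.22 in Daudi, 10.06 and 10.71 in Namalwa, 9.45 and 8.09 in Raji, 8.90 and 8.50 in SU-DHL4, 9.40 and 8.17 in SU-DHL6, and 9.04 in HT. Untreated Daudi was the highest of the untreated lines, and only the second treated Raji array, at 8.09, fell below its higher array. Within each line, treated and untreated arrays did not overlap. The difference was 4.42 in Namalwa, 3.56 in Raji, 3.18 in HT, 2.06 in Daudi, 2.04 in SU-DHL6 and 1.98 in SU-DHL4 (standard error 0.58 in lines with duplicates). The mean was 2.87 ± 1.01 (SD, n = 6 lines), or 7.32-fold. The SD of the line means was 0.96 untreated and 0.73 treated, and Daudi, with the highest untreated level, had the third-lowest difference. The smaller treated SD rested on Daudi. In the other lines the means ran from 5.21 (Raji) to 6.75 (SU-DHL6) untreated and from 8.70 (SU-DHL4) to 10.38 (Namalwa) treated. Whether the spread changed with treatment was not tested.

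TUFT1 showed the most similar differences over the lines. Untreated, its level was 6.86 and 6.88 in Daudi, 5.96 and 6.57 in Namalwa, 6.20 and 5.57 in Raji, 6.23 and 5.91 in SU-DHL4, 5.65 and 6.27 in SU-DHL6, and 6.36 in HT. Treated, it was 10.06 and 9.74 in Daudi, 8.42 and 10.17 in Namalwa, 9.41 and 7.09 in Raji, 9.12 and 8.21 in SU-DHL4, 8.35 and 8.22 in SU-DHL6, and 9.08 in HT. All 11 treated arrays were above all 11 untreated arrays, and the closest approach was again the second treated Raji array. The difference was 3.03 in both Daudi and Namalwa, 2.72 in HT, 2.60 in SU-DHL4, 2.36 in Raji and 2.32 in SU-DHL6. The mean was 2.68 ± 0.31 (SD, n = 6 lines), or 6.40-fold, and the folds ran from 5.00 to 8.18. The standard error of a single line's difference, 0.64, was larger than the SD over the lines, since duplicate arrays of TUFT1 lay up to 2.32 apart.

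SAT1 had the smallest differences of the 4 genes, and in SU-DHL6 its groups overlapped. Untreated, its level was 9.78 and 9.82 in Daudi, 8.45 and 8.58 in Namalwa, 9.02 and 10.19 in Raji, 7.98 and 8.56 in SU-DHL4, 8.24 and 9.45 in SU-DHL6, and 7.83 in HT. Treated, it was 11.01 and 11.18 in Daudi, 10.86 and 11.10 in Namalwa, 11.55 and 11.10 in Raji, 10.07 and 9.91 in SU-DHL4, 10.18 and 8.84 in SU-DHL6, and 9.88 in HT. The second treated SU-DHL6 array, the one with the ACTB 3' excess, was below the second untreated SU-DHL6 array. In the other 5 lines the groups did not overlap. The difference was 2.47 in Namalwa, 2.05 in HT, 1.72 in both Raji and SU-DHL4, 1.30 in Daudi and 0.67 in SU-DHL6 (standard error 0.45 in lines with duplicates). The mean was 1.65 ± 0.62 (SD, n = 6 lines), or 3.15-fold. The value for SU-DHL6 depended on single arrays. It was 1.34 without the second treated array, 1.28 without the second untreated, 0.06 without the first untreated and 0.00136 without the first treated array, and the SD over lines was then 0.44, 0.46, 0.83 and 0.85.

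The other SAT1 probe sets gave smaller mean differences. For 203455_s_at the mean was 1.24 ± 0.59 (SD, n = 6 lines), from 0.44 in SU-DHL6 to 2.04 in Namalwa, and for 213988_s_at it was 1.28 ± 0.58, from 0.38 in SU-DHL6 to 1.89 in HT. All 3 probe sets were lowest in SU-DHL6, but only 213988_s_at stayed so without the second treated SU-DHL6 array: 203455_s_at was then at 0.95 there, above SU-DHL4 at 0.74, and 210592_s_at at 1.34, above Daudi at 1.30. Without the first treated SU-DHL6 array the differences in SU-DHL6 were -0.08, 0.00136 and 0.11 for 203455_s_at, 210592_s_at and 213988_s_at. The shared probe set 210593_at stayed at 5.61 to 6.41 on all arrays, and its mean difference was 0.09 ± 0.15 (SD, n = 6 lines).

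**Figure D1:**
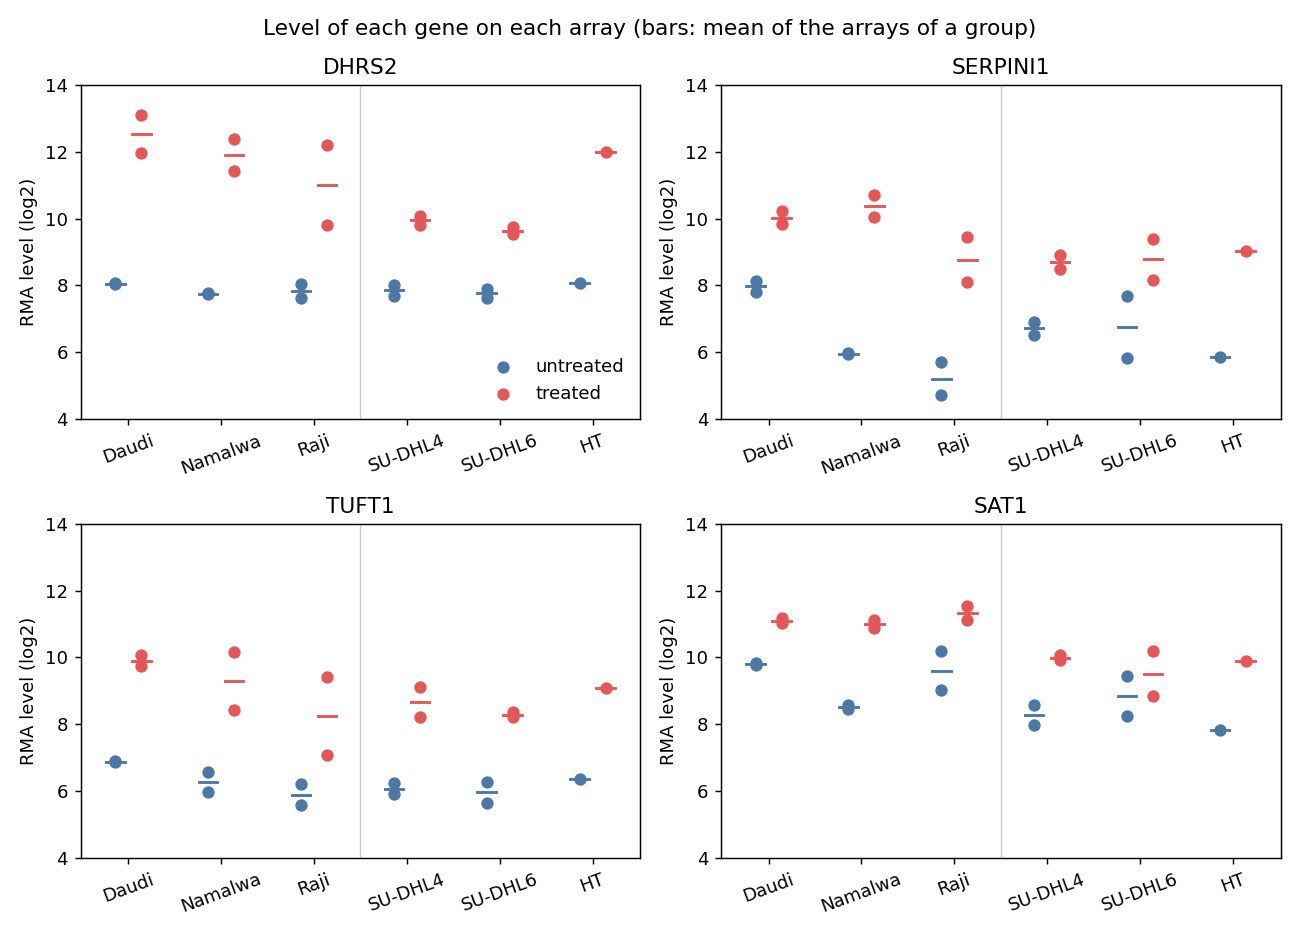
Log2 RMA level (vertical axis) of DHRS2, SERPINI1, TUFT1 and SAT1 on each array, by line, with untreated and treated arrays in separate colours and a bar at each group's mean; a grey line separates the Burkitt from the DLBCL lines. Untreated DHRS2 stays between 7.61 and 8.08, untreated SERPINI1 spans 4.72 to 8.15, and treated and untreated SAT1 overlap in SU-DHL6. Levels of different genes come from different probes and are not comparable with each other.

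**Figure D2:**
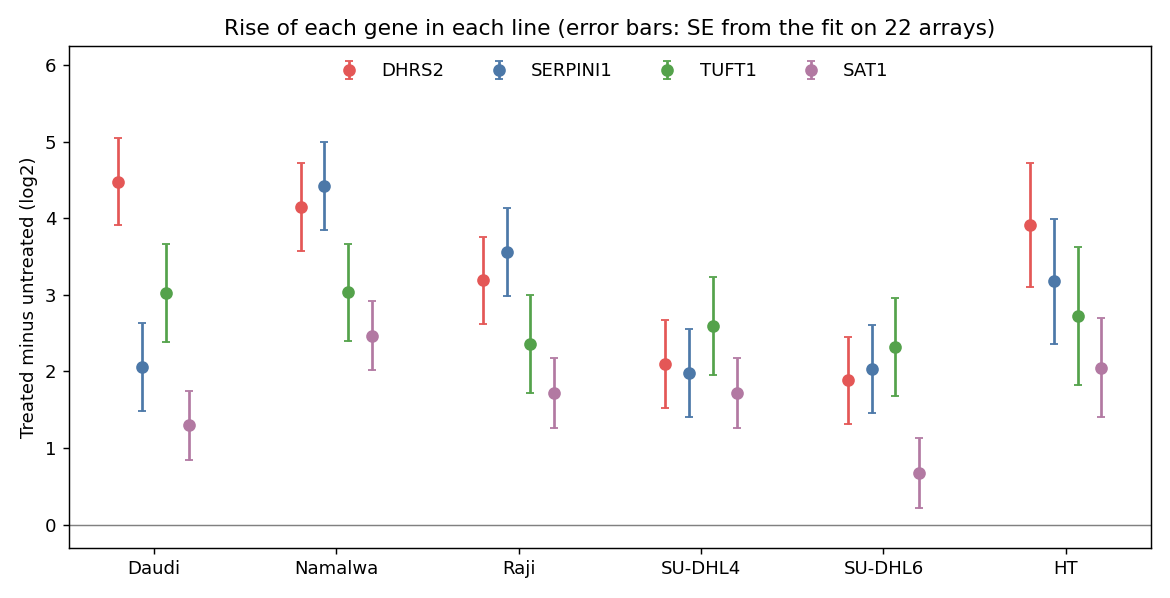
Treated minus untreated difference (log2, vertical axis) of the 4 genes in each line, with the standard error from the fit on all 22 arrays. TUFT1 lies between 2.32 and 3.03 in all lines, whereas DHRS2 runs from 1.88 to 4.48 and SERPINI1 from 1.98 to 4.42.

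**Figure D3:**
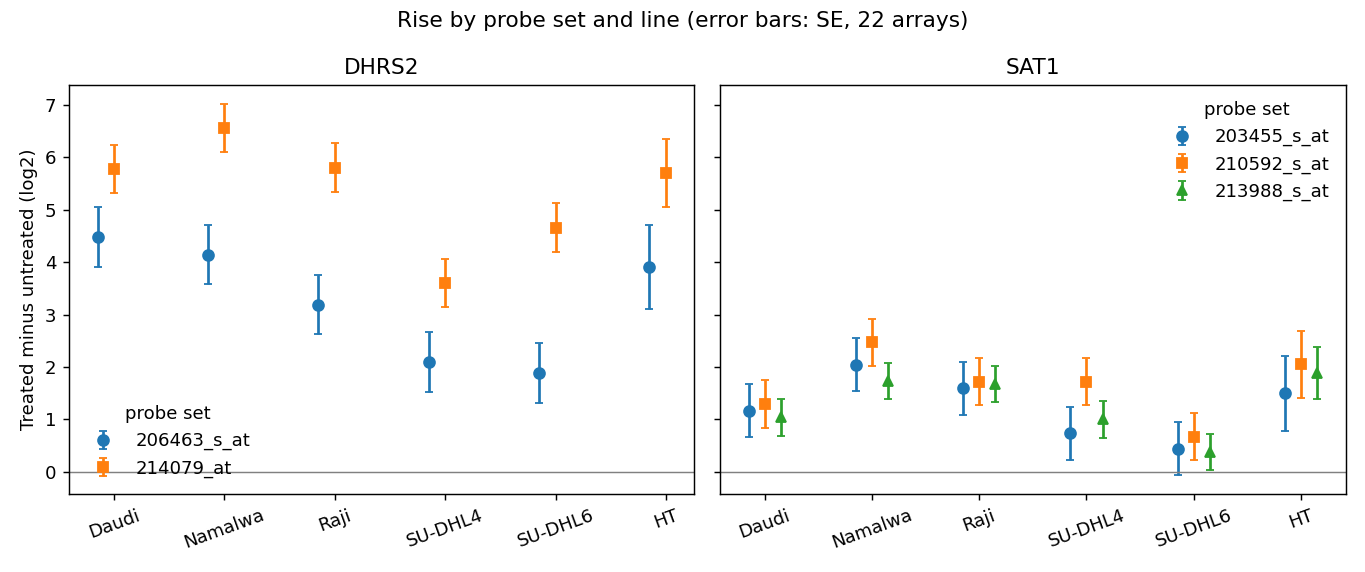
Treated minus untreated difference (log2, vertical axis) by line for the 2 probe sets of DHRS2 and the 3 of SAT1, with standard errors from the fit on all 22 arrays. The DHRS2 probe set 214079_at is higher than 206463_s_at in each line, and all 3 SAT1 probe sets are lowest in SU-DHL6 with all arrays in.

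Among all 11963 genes, 25.1% had a higher treated than untreated mean in all 6 lines, as the choice of these genes required, and 2.26% had every treated array above every untreated one, as DHRS2 and TUFT1 did. Nothing is read from these counts, since the genes were chosen on this contrast. Ordered by the smallest difference in any line, TUFT1 ranked 3, SERPINI1 5, DHRS2 7 and SAT1 119. The genes next in that order were TXNIP (2.58) above TUFT1, HSPA2 (2.31) between TUFT1 and SERPINI1, H2BC5 (1.91) between SERPINI1 and DHRS2, and NEU1 (1.76) below DHRS2. Around SAT1 they were ATP1B1 and NPL, both within 0.01 of its 0.67.

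Evenness over the lines was first described by the SD of the difference. A choice of genes that rose in every line favours a low SD, so the places below are a description only. Of the 40 genes with a mean difference of at least 2, TUFT1 had the lowest SD, 0.31, where the median was 1.10 and the highest was 3.25, that of IFI27, an interferon-stimulated gene. DHRS2 ranked 20 and SERPINI1 17 of the 40, near the middle. The place of TUFT1 rested in part on the Raji duplicates: without the first treated Raji array its SD was 0.68 and its rank 5, and over all 23 settings tried the rank ran from 1 to 5. SAT1, with a mean under 2, was not in this set.

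**Figure D4:**
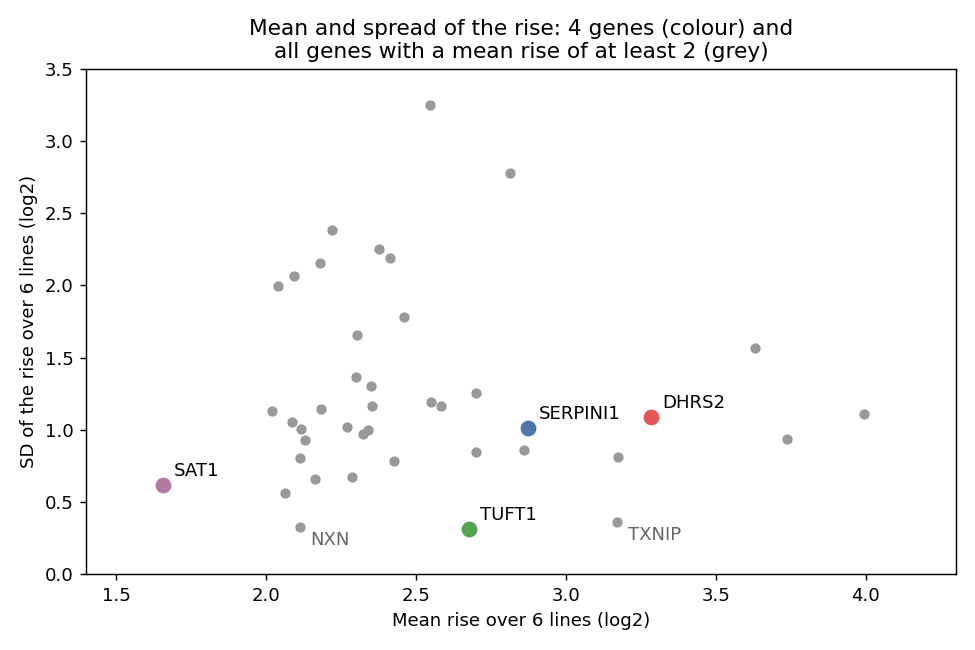
Mean (horizontal axis) and SD (vertical axis) over the 6 lines of the treated minus untreated difference (log2), for the 4 genes in colour and for the 40 genes with a mean of at least 2 in grey. TUFT1 lies at the bottom with an SD of 0.31, and DHRS2 and SERPINI1 lie near the median SD of 1.10.

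The difference of the treatment effect among the 6 lines was then tested with limma's moderated F test over all 11963 genes, of which 20.4% passed. None of the 4 genes did. The adjusted p was 0.0882 for DHRS2, 0.119 for SERPINI1, 0.294 for SAT1 and 0.954 for TUFT1. For TUFT1 this does not show equal effects, because its duplicates were far apart. Leaving out 1 array of a duplicate, as below, changes that line's difference. It also removes the gap of that duplicate from the estimate of the spread, which all groups share. For DHRS2 the result turned on Raji, whose treated arrays lay 2.39 apart: limma's adjusted p was 0.00377 without the first and 0.00406 without the second of them. For SERPINI1 it was 0.0342 without the first untreated SU-DHL6 array. With every probe set tested singly, where 17.9% passed, the DHRS2 probe set 214079_at passed with limma's adjusted p of 0.0451, and 206463_s_at did not, at 0.102.

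The untreated level among the lines passed the same F test for 20.5% of genes, SERPINI1 and SAT1 among them. For SERPINI1, limma's adjusted p was 0.0318, with line means from 5.21 in Raji to 7.97 in Daudi. The order from low to high was Raji, HT, Namalwa, SU-DHL4, SU-DHL6 and Daudi, and HT, Namalwa, SU-DHL4 and SU-DHL6 spanned only 5.87 to 6.75, less than the gap of 1.84 between the untreated SU-DHL6 arrays. For SAT1 it was 0.0463, with line means from 7.83 in HT to 9.80 in Daudi. For DHRS2 the line means spanned 7.76 to 8.08 and limma's adjusted p was 1.0, and for TUFT1 it was 0.952. With every probe set tested singly, where 17.5% passed, SERPINI1 passed with limma's adjusted p of 0.0409 and none of the 3 SAT1 probe sets did (0.0580 to 0.141). Both calls moved when arrays were left out, which also changes the estimate of the spread shared by all groups. Treated arrays enter this test only through that estimate. That of SERPINI1 was lost without either untreated Daudi, Namalwa or SU-DHL4 array or without the first untreated Raji array (limma's adjusted p 0.0506 to 0.150). That of SAT1 was lost without any of 13 of the 20 arrays with a duplicate, namely every Daudi, Namalwa and SU-DHL4 array and the second untreated Raji array (limma's adjusted p up to 0.130).

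The treated level among the lines passed for 48.3% of genes, among them DHRS2 with limma's adjusted p of 0.00446 and SAT1 with 0.0177. Treated DHRS2 ranged over line means from 9.64 in SU-DHL6 and 9.95 in SU-DHL4 to 12.53 in Daudi. The SD of its line means was 0.14 untreated and 1.17 treated, and for 214079_at it was 0.47 and 1.19. Treated SAT1 ranged from 9.51 in SU-DHL6, 9.88 in HT and 9.99 in SU-DHL4 to 10.98 in Namalwa, 11.10 in Daudi and 11.33 in Raji, with every Burkitt line above every DLBCL line. Untreated, only the SU-DHL6 mean (8.84, from arrays at 8.24 and 9.45) broke that order, being above Namalwa (8.51), and the first SU-DHL6 array alone was below it. With every probe set tested singly, where 44.2% passed, both probe sets of DHRS2 and all 3 of SAT1 passed (limma's adjusted p 0.00126 to 0.0217). SERPINI1, at 0.0690, and TUFT1, at 0.188, did not pass in limma's fit. Leaving out any array changes the estimate of the spread shared by all groups, and untreated arrays enter this test in no other way. SERPINI1 passed without either untreated SU-DHL6 array (0.0266 each), without the first treated SU-DHL6 array (0.0358) and without the first treated Raji array (0.0281), and TUFT1 passed without that Raji array (0.0117). Without SU-DHL4 and SU-DHL6 treated array 2, a choice made after seeing the data, limma's adjusted p was 0.134 for DHRS2 and 0.187 for SAT1, and neither passed.

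Set by kind of lymphoma, the differences were larger on average in Burkitt than in DLBCL lines for each of the 4 genes, and none passed the test, which 0.00836% of genes did (1 gene, LGALS1, named after its values were seen, with 1315 at an unadjusted p under 0.05). The mean difference of DHRS2 was 3.94 in Burkitt and 2.63 in DLBCL lines, a gap of 1.31 (95% interval -0.13 to 2.75, limma's adjusted p 0.461). For SERPINI1 the means were 3.35 and 2.40, a gap of 0.95 (95% interval -0.57 to 2.47, adjusted p 0.547). For both genes the DLBCL line HT lay closer to the Burkitt mean than to either SU-DHL line. For SAT1 the gap was 0.35 (95% interval -0.71 to 1.41, adjusted p 0.734) and for TUFT1 0.26 (95% interval -0.31 to 0.83, adjusted p 0.648). The sign of the TUFT1 gap was negative without the second treated Namalwa array (-0.03) or the first treated Raji array (-0.13).

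On some arrays several of the 4 genes stood apart from their duplicate together. On the second treated Raji array DHRS2 was lower than on the first by 2.39, TUFT1 by 2.32, SERPINI1 by 1.35 and SAT1 by 0.44. On the second untreated SU-DHL6 array SERPINI1 was higher than on the first by 1.84 and SAT1 by 1.22, while DHRS2 was lower by 0.27. On the second untreated Raji array SERPINI1 was higher than on the first by 0.97 and SAT1 by 1.17, while TUFT1 was lower by 0.63 and DHRS2 by 0.42. The part of RNA quality in these gaps was not tested. DHRS2 and TUFT1 shifted the same way between duplicates in 9 of 10 groups, and SERPINI1 and SAT1 in 8 of 10. The count was 7 of 10 for TUFT1 and SAT1, 6 for DHRS2 and SAT1, 5 for SERPINI1 and TUFT1, and 4 for DHRS2 and SERPINI1, the last made of 4 of 5 treated and 0 of 5 untreated groups. The matching share over all pairs of genes was not computed, so these counts are a description only.

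The genes most like each of the 4 were taken by Pearson correlation over the 12 means of a line and treatment, which share the split into treated and untreated. For DHRS2 they were NRIP3 (0.98), PMEL (0.98) and TUFT1 (0.96), and for TUFT1 they were PPP1R13B, DHRS2 and RGL1 (0.96 each). DHRS2 and TUFT1 were therefore in each other's list. For SERPINI1 they were GNG3 (0.95), SEL1L (0.95) and SMPD1 (0.94), and for SAT1 ETV5 (0.97), GAREM1 (0.95) and SEMA3G (0.95). Likeness in shape did not mean likeness in size: the mean difference of GNG3 was 0.21 and that of PMEL 2.43.

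The polyamine genes give the surroundings of SAT1. In the test over the 6 lines, 18.7% of all genes rose and 18.3% fell, and the median difference of all genes was 0.12. Of the calls 50.6% were rises, and 34.3% were once each array was centred on its median. Of 21 polyamine genes measured, 4 rose, 4 fell and 13 did not pass, with a median of 0.14. Both shares were close to those of all genes, so nothing is read from them about the pathway. Of the genes for making polyamines, SMS (spermine synthase) fell by 2.22 ± 0.50 (SD over 6 lines, limma's adjusted p 0.000355) and SRM (spermidine synthase) fell by 1.94 ± 0.48 (0.000401), while AMD1, which makes the aminopropyl donor of both, had a difference of -0.52 (0.207). EIF5A, the translation factor that carries the spermidine-derived residue hypusine, fell by 2.42 ± 1.06 (0.00218), and its relative EIF5A2 had a difference of 0.30 (0.0793). Of the enzymes that make hypusine, DOHH fell by 0.38 and DHPS had a difference of -0.15 (0.431). SMOX (spermine oxidase) rose by 0.54 ± 0.25 (0.00701). Among the antizymes, which inhibit ornithine decarboxylase, OAZ2 rose by 0.82 ± 0.36 (0.00359) and OAZ3 had a difference of 0.29 (0.0565). OAZ1, another antizyme (0.27), and ARG2, an arginase (0.61), passed in 3 of the 4 scalings, the deposited values being 1 of them. ODC1, ornithine decarboxylase, was at 12.29 untreated and 12.43 treated, with a limma adjusted p of 0.702, and PAOX, which oxidises the acetylated polyamines made by SAT1, had a difference of 0.26 (0.0747). Without SU-DHL4 and SU-DHL6 treated array 2, 3 of the 21 rose and 3 fell. The share of all genes in that setting is not given here, so such list counts, here and below, are a description only.

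**Figure D5:**
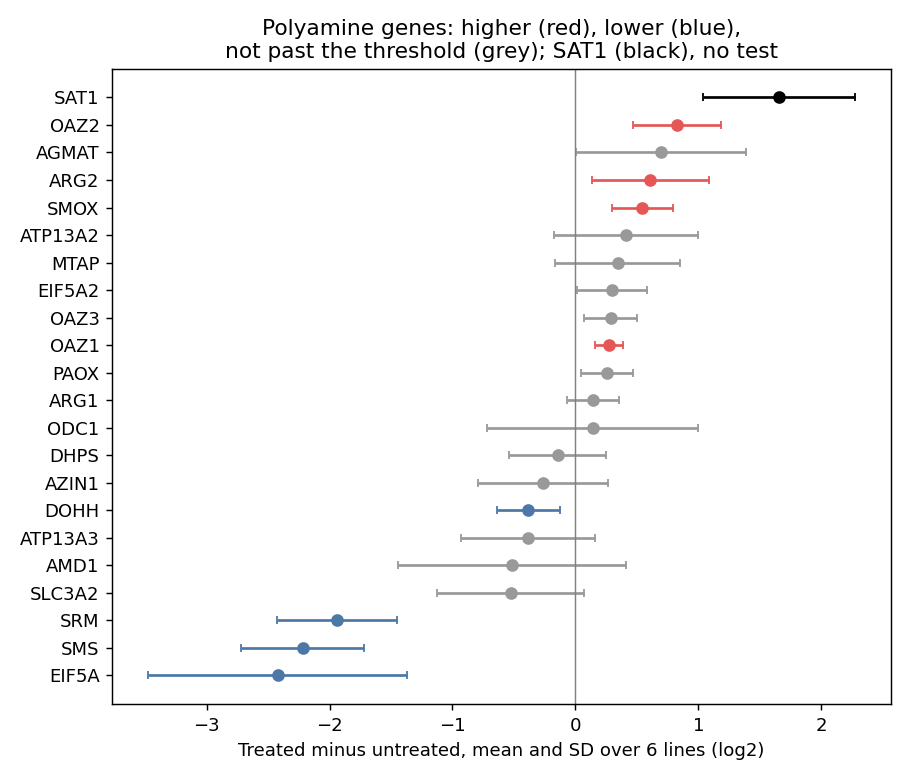
Treated minus untreated difference (log2, horizontal axis; mean and SD over 6 lines) of the 21 polyamine genes measured and of SAT1. SMS, SRM and EIF5A lie near -2, SMOX and OAZ2 are higher after treatment, and SAT1, in black and not tested, lies at 1.65.

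Relatives of the other 3 genes mostly had small differences. Of 37 short-chain dehydrogenases/reductases other than DHRS2, 6 rose and 5 fell, with a median of 0.11. Beside 18.7% and 18.3% of all genes, nothing is read from these counts about the family. HSD17B11, a steroid dehydrogenase of lipid droplets, rose by 1.87 ± 1.14 (SD over 6 lines, limma's adjusted p 0.00787), in 5 of 6 lines. DECR1, of fatty acid oxidation, fell by 1.18 and HSD17B10, a mitochondrial enzyme, fell by 0.97. DHRS7 fell by 1.01, a call that held in 2 of the 4 scalings. No other gene of this family reached the mean of either DHRS2 probe set, but DHRS2 was chosen for large differences, so nothing is read from that. Without SU-DHL4 and SU-DHL6 treated array 2, 6 rose and 2 fell.

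Of 24 serpins other than SERPINI1, 6 rose and 0 fell, with a median of 0.25, beside 18.7% and 18.3% of all genes. Under the other scalings 2 to 4 of them rose, where 1269 to 1967 of the 11963 genes did. Whether serpins differed from all genes was not tested. SERPINE2, another inhibitor of plasminogen activators, rose by 1.96 ± 1.28 (SD over 6 lines, limma's adjusted p 0.0105). SERPINA1 (0.45) and SERPINB10 (0.44) passed as deposited, the former in 1 and the latter in 3 of 4 scalings, and SERPINB13 (0.44) did not pass. SERPINI2, the closest relative of SERPINI1 and its near neighbour on chromosome 3, had a difference of 0.12 ± 0.24 (0.354). PLAT, the tissue plasminogen activator that neuroserpin inhibits, rose by 0.73 ± 0.40 (0.00799) in 6 of 6 lines, from 4.57 to 5.31. PLAU (0.43) passed in 1 of 4 scalings, and PLAUR (0.33) and PLG (0.05) did not pass.

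Of 8 genes of tooth matrix and tuftelin partners, 1 rose, AMBN (ameloblastin), by 0.64 ± 0.30 (SD over 6 lines, limma's adjusted p 0.00609). Of all genes 18.7% rose, so nothing is read from that count. Without SU-DHL4 and SU-DHL6 treated array 2, 2 of the 8 rose. SPP1 (0.62), MEPE (0.30) and IBSP (0.28) did not pass. Of 9 genes known to respond to histone deacetylase inhibitors, 6 rose and 0 fell, with a median of 0.80, beside 18.7% and 18.3% of all genes. Under the other scalings 4 to 6 of the 9 rose, where 1269 to 1967 of the 11963 genes did. TXNIP rose by 3.17 ± 0.36 (SD over 6 lines), MT1X by 1.84 ± 0.81, GADD45B by 1.22 ± 0.38 and CDKN1A by 1.01 ± 1.01. The SD of TXNIP over the lines was close to that of TUFT1. CDKN1A, with limma's adjusted p of 0.0476, passed in 3 of the 4 scalings. Without SU-DHL4 and SU-DHL6 treated array 2, 4 of the 9 rose.

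Of the 24 measured genes nearest to the 4 on their chromosomes, 3 on each side, 1 rose and 4 fell, beside 18.7% and 18.3% of all genes. They are the nearest measured genes and not adjacent ones: 1 to 24 other genes of the RefSeq order lay between, 9 for MRPL9 and 10 for ZFX. The differences of the 24 ran from -1.39 to 0.52. Under the other scalings 0 to 2 rose and 2 to 6 fell, where 1269 to 1967 of the 11963 genes rose and 1707 to 2434 fell. None of the 6 near DHRS2 passed as deposited, although AP1G2 (-0.28) passed in 2 of 4 scalings, and AP1G2, ZFHX2, THTPA, CPNE6, NRL and PCK2 lay between -0.73 and 0.52. PDCD10, beside SERPINI1, had a difference of -0.34 (limma's adjusted p 0.143), and ZBBX rose by 0.31 there, in 2 of 4 scalings. Beside TUFT1, POGZ had a difference of 0.08 as deposited and of up to 0.50 in other scalings, passing in 2 of 4, SNX27 had one of 0.20, and MRPL9, a mitochondrial ribosomal protein, fell by 1.39 ± 0.29 (0.000365). Beside SAT1, ZFX fell by 0.62 (0.00900), and PRDX4 fell by 1.35 and EIF2S3 by 0.89, each in 2 of 4 scalings, while ACOT9 (-0.13) did not pass and APOO (-0.32) passed in 1 of 4.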

How the data were processed

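Per the submitters' processing notes, the values were made with RMA and R 2.10.1; the deposited values are log2 expression per probe set, from background correction, quantile normalization and summarisation. The authors also deposited a table of p-values and log2 differences, used only where named. The 4 genes and the gene lists were chosen with earlier results of these data known.

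Of 22215 probe sets that are not controls, 19065 had 1 symbol in the platform annotation. Each of 11963 genes was given its brightest such probe set, with no filter. Tests used limma 3.58.1 in R 4.3.3 (two-sided, Benjamini-Hochberg over all genes, threshold 0.05). Over the lines, 12 means were fitted with line as a block. Differences among lines used moderated F tests on 22 arrays and 12 group means, with HT assumed to vary like the other lines; Burkitt and DLBCL lines were compared on 6 line differences. Named were all probe sets of the 4 genes, the 3 genes most like each, their neighbours in rank and on the chromosome, and up to 4 per list plus fixed genes by role; ARG2, OAZ1, OAZ3, DOHH, DHPS, AMD1 and EIF5A2 were added after their values were seen. DHRS4 and TFIP11 had no probe set of their own. The tests were also run on simulated data with independent noise and no arrays that stood apart. That run cannot show how they behave on arrays such as these. The labels do not say that duplicates came from separate cultures, so p-values among lines reflect only the spread of these samples, which could be technical. The number of arrays limits the precision. Same-numbered arrays did not deviate together (correlations -0.12 to 0.03), so numbers were not used as pairs.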

Additional observations from a re-analysis of the deposited data

Results flagged for a closer look

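The DHRS2 probe set 214079_at showed a treatment effect that differed among the 6 lines when all 22215 probe sets were tested singly (limma's moderated F test, adjusted p 0.0451, with 17.9% of probe sets passing). Treated was above untreated in 6 of 6 lines, and the difference ran from 3.60 in SU-DHL4 to 6.57 in Namalwa.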

How the results depend on the processing

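The 4 genes were chosen for rises in every line, so a kept direction under all 33 settings tried is no separate support. Their mean differences ran from 2.63 to 3.94 for DHRS2, 2.40 to 3.35 for SERPINI1, 2.48 to 2.87 for TUFT1 and 1.48 to 2.103 for SAT1. Counts over all genes moved more than these mean differences. Genes that rose over the lines numbered 2238 as reported, 1269 with each array centred on its median, 3473 with all probe sets fitted singly, 469 in DLBCL lines alone, 531 in Burkitt lines alone, 3864 with the replicate block and 4446 on 22 arrays with line as an additive term. Genes that fell numbered 2186, against 3720 with all probe sets, 986 in DLBCL lines and 1004 in Burkitt lines. Settings with only 3 lines have fewer samples. The effect among lines was called for 2440 genes, for 3974 probe sets singly, for 540 without SU-DHL4, for 579 without SU-DHL4 and SU-DHL6 treated array 2, and for 1327 with the replicate block; the cause was not tested. The block changed no call on the 4 genes for that effect and was not run for the untreated and treated levels. For that effect, leaving out 1 array at a time gave limma's adjusted p of 0.00377 to 0.176 for DHRS2, 0.0342 to 0.242 for SERPINI1, 0.327 to 0.982 for TUFT1 and 0.0727 to 0.512 for SAT1, and 1248 to 3882 genes (1606 without Daudi untreated array 2, 1352 without SU-DHL4 treated array 2, 1248 and 1257 without SU-DHL4 untreated array 1 or 2, and 3882 without SU-DHL6 treated array 1). Between Burkitt and DLBCL lines it gave gaps of 0.91 to 1.71 for DHRS2, 0.64 to 1.26 for SERPINI1, -0.13 to 0.64 for TUFT1 and 0.13 to 0.57 for SAT1. The count of genes called there was 0 or 1, and 0 under quantile normalization, cyclic loess, without dim genes, with an intensity trend, without HT, without SU-DHL4, and without SU-DHL4 and SU-DHL6 treated array 2.

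Limma's adjusted p for the untreated level of SAT1 was 0.0640 with centred arrays, 0.0580 with all probe sets, 0.0742 without HT and 0.0541 without SU-DHL4 and SU-DHL6 treated array 2. Leaving out 1 array gave 0.0183 to 0.130 for SAT1, 0.00665 to 0.150 for SERPINI1 and 0.653 to 1.0 for TUFT1, and 1887 to 2891 genes; all probe sets gave 3881 calls. For the treated level, DHRS2 had 0.134 without SU-DHL4 and SU-DHL6 treated array 2, SAT1 had 0.187 there and 0.0595 without SU-DHL4, and SERPINI1 had 0.0470 without HT. Leaving out 1 array gave 7.92e-05 to 0.0170 for DHRS2, 0.0266 to 0.203 for SERPINI1, 0.0117 to 0.421 for TUFT1 and 0.00417 to 0.0434 for SAT1. It was called for 9808 probe sets singly, for 2324 genes without SU-DHL4 and for 2274 without SU-DHL4 and SU-DHL6 treated array 2. Array number limits the precision: HT had single arrays.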
